A study of Homo sapiens with 16 samples.

Results

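Genes that set the pace of G1 were followed after knockdown of the kinase YES1 in a pair of breast cancer cell lines. The set held the D cyclins CCND1, CCND2 and CCND3, their kinases CDK4 and CDK6, the CIP/KIP inhibitors CDKN1A, CDKN1B and CDKN1C, the INK4 inhibitor CDKN2C and their substrate RB1. Members were taken from the tables by gene symbol, and all 10 were among the 58735 genes of the deposited read count tables. YES1 is a SRC family tyrosine kinase. The groups were MDA-MB-231 siYES1, MDA-MB-231 siNS, SUM159PT siYES1 and SUM159PT siNS, with 4 libraries each and 16 in all. Both lines are labelled as wild-type, triple negative breast cancer cells. All cells received a Lipofectamine reagent and an siRNA, against YES1 or, as siNS, against firefly luciferase, and were labelled 48 hours. Complete medium was added at 6 hours and renewed at 24 hours. The sources used here do not say how many siRNAs made up siYES1, so that an effect of YES1 loss and another effect of the same siRNA cannot be told apart. The design text calls the 4 libraries of a group technical replicates, so p-values measure only the spread between these libraries.

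In G1, mitogens raise D cyclins, which bind and activate CDK4 or CDK6. The active kinases phosphorylate the retinoblastoma protein, made from RB1, which then releases E2F factors that switch on S phase genes. INK4 inhibitors bind CDK4 and CDK6 directly, whereas CIP/KIP inhibitors bind cyclin and kinase complexes and restrain CDK2 in particular. In breast cancer CCND1 is a well known oncogene, and drugs against CDK4 and CDK6 are in clinical use.

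Promoter windows of members that were higher with siYES1 in both lines are shown so that the reader can see the sequence at their start sites. Windows were taken from RefSeq (build GRCh38.p14) and run from 250 bases before to 50 after a start, with 12 windows for 7 of the 10 members. CCND1, CCND2 and CDKN1C had no entry. For RB1, the other member higher in both lines, the entry covers a start far inside the gene and is not printed. Of 2 windows of CDK6 the upstream one is given. Capitals mark the E-box CACGTG and the GC box GGGCGG or its complement CCGCCC, as found by a search of both strands. The CDK4 window lies at chr12:57752261-57752560 on the minus strand, the CDK6 window at chr7:92836524-92836823 on the minus strand, the CDKN1A window at chr6:36678464-36678763 on the plus strand and the CDKN1B window at chr12:12717118-12717417 on the plus strand.
CDK4: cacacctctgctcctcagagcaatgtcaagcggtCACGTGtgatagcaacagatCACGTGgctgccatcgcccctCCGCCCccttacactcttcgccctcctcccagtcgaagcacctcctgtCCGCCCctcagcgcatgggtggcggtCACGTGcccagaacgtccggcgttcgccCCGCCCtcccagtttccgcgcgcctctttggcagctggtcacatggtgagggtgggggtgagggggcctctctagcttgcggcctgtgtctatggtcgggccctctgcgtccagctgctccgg
CDK6: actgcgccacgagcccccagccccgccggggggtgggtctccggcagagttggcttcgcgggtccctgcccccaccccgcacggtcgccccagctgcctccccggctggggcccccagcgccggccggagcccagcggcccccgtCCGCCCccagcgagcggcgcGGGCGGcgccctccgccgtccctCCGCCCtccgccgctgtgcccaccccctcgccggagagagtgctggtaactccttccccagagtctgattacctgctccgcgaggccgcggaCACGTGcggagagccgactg
CDKN1A: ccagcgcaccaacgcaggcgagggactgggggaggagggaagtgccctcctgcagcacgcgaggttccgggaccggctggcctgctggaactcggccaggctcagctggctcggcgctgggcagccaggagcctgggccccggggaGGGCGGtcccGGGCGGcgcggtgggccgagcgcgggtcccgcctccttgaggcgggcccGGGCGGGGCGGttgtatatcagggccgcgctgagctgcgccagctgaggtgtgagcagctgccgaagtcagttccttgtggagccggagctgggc
CDKN1B: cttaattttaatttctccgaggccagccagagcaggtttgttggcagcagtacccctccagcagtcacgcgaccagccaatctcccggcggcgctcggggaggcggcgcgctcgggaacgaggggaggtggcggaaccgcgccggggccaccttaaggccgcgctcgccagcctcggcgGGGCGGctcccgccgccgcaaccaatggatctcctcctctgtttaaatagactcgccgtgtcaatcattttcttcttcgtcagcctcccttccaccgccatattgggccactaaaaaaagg

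The CDK4 window held 3 E-boxes, and the CDK6 window held 1. An E-box was present in 7.26% of all 35116 windows in the table, and 3 or more were present in 0.094%. GC boxes numbered 3 in the CDK4 window, 3 in the CDK6 window, 4 in the CDKN1A window, where a pair of them overlaps, and 1 in the CDKN1B window. The GC box was present in 45% of all windows, and 3 or more were present in 15.8%. Members not called higher in both lines held it too, with up to 5 in a CCND3 window and up to 6 in a CDKN2C window. Of the 12 member windows, 8 held a GC box, from 6 members, and 4 held an E-box, from 3 members that include CDKN2C. The CDKN1B window also held the CCAAT box, spelled CCAAT or its complement ATTGG, 3 times. Of all windows, 34.6% held at least 1 and 3.26% held 3 or more. None of the 12 windows held the E2F words TTTCCCGC, TTTCGCGC, TTTGGCGC or TTTGCCGC, present in 3.31% of all windows, or the CHR words TTTGAA or TTCGAA, present in 16.4%. These matches describe letters, and no binding was measured.

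YES1 was lower in every siYES1 library. It averaged 13.8 ± 0.82 CPM in MDA-MB-231 siYES1 and 63.2 ± 6.16 CPM in MDA-MB-231 siNS, and 17.2 ± 1.8 CPM in SUM159PT siYES1 and 134 ± 23.8 CPM in SUM159PT siNS (SD, n = 4). Levels are counts scaled to library size (CPM), with TMM factors set within a line. Libraries held 15680459 to 23451253 counts. On the second principal component of MDA-MB-231, siNS replicates 1 and 2 lay at 15.2 and 20.7 and siNS replicates 3 and 4 at -17.2 and -19. SUM159PT siNS replicate 1 stood apart from the other siNS libraries of that line on its second principal component, at 47.3 against -32.2 to -11. That library had a summed level of 14 E2F-dependent S phase genes of 1039 CPM, against 506.7 to 539.1 CPM in the other SUM159PT siNS libraries and 656.2 to 684.7 CPM in SUM159PT siYES1. As markers of other cells, the leukocyte gene PTPRC averaged under 1 CPM in all 4 groups, and the 4 leukocyte markers summed to 1.52 to 2.61 CPM in MDA-MB-231 siYES1 and 7.84 to 10.1 CPM in MDA-MB-231 siNS, mostly CD14. In SUM159PT they summed to 0.374 to 1.27 CPM with siYES1 and 3.37 to 5.33 CPM with siNS. The 4 fibroblast markers, mostly COL1A1, summed to 618 to 718 CPM in SUM159PT siYES1 and 1640 to 1900 CPM in SUM159PT siNS, and to 21.4 to 25.4 CPM in MDA-MB-231 siYES1 and 44.4 to 53.5 CPM in MDA-MB-231 siNS. LUM was at 0 in all SUM159PT libraries, and PDGFRA averaged 30.3 ± 4 CPM there with siYES1 and 98.5 ± 12.8 CPM with siNS. DCN leaned the other way in SUM159PT, at 21 ± 2.68 CPM with siYES1 and 15.6 ± 3.35 CPM with siNS, and was not called. The 3 endothelial markers, mostly PECAM1, summed to 2.44 to 4.44 CPM in MDA-MB-231 siYES1 and 4.58 to 9.25 CPM in MDA-MB-231 siNS, and to 0.267 to 0.476 CPM in SUM159PT siYES1 and 1.71 to 3.21 CPM in SUM159PT siNS. The 7 epithelial markers summed to 235 to 249 CPM in SUM159PT siYES1 and 415 to 489 CPM in SUM159PT siNS, mostly KRT8. In MDA-MB-231 their sums overlapped, at 2080 to 2160 CPM with siYES1 and 1930 to 2530 CPM with siNS, where KRT8 rose by 0.43 ± 0.08 on the log2 scale (edgeR adjusted p = 0.000205) and KRT19 fell by 0.85 ± 0.08 (edgeR adjusted p = 1.43e-07). VIM and CD44, high in mesenchymal lines, summed to 1680 to 1790 CPM in MDA-MB-231 siYES1 and 1300 to 1580 CPM in MDA-MB-231 siNS, and to 3030 to 3100 CPM in SUM159PT siYES1 and 1530 to 2190 CPM in SUM159PT siNS. In MDA-MB-231 VIM averaged 832 ± 55.6 CPM with siYES1 and 489 ± 85.1 CPM with siNS. CD44 averaged 905 ± 9.7 CPM and 932 ± 59.6 CPM there. The part of these markers in the results was not tested. ESR1 and PGR, which triple negative cells lack, averaged under 1 CPM, and ERBB2 averaged 64 to 119 CPM.

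In MDA-MB-231, 6 members rose with siYES1, 3 fell and 1 was not called by edgeR's quasi-likelihood test at an adjusted p under 0.05 over all genes tested. Of all 14319 genes tested in that line, 24.9% rose and 27.5% fell. Libraries of the siRNA groups did not overlap for 9 of the 10 members, against 47.1% of all genes tested. In SUM159PT, 5 members rose, 2 fell, 2 were not called and CCND2 did not pass the filter on low counts. Of all 14469 genes tested there, 17.7% rose and 19% fell, and the libraries did not overlap for 8 of the 9 members tested, against 36.8% of all genes. The log2 change, taken as siYES1 over siNS, had a median over tested members of 0.276 (MDA-MB-231) and 0.417 (SUM159PT), beside 0.00152 and -0.0291 over all genes tested. CDK4, CDK6, CDKN1A, CDKN1B and RB1 rose in both lines, and CCND1 fell in both. Below, ± after a log2 change is its standard error, and ± after a level or a share is the SD of 4 libraries.

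**Figure D1:**
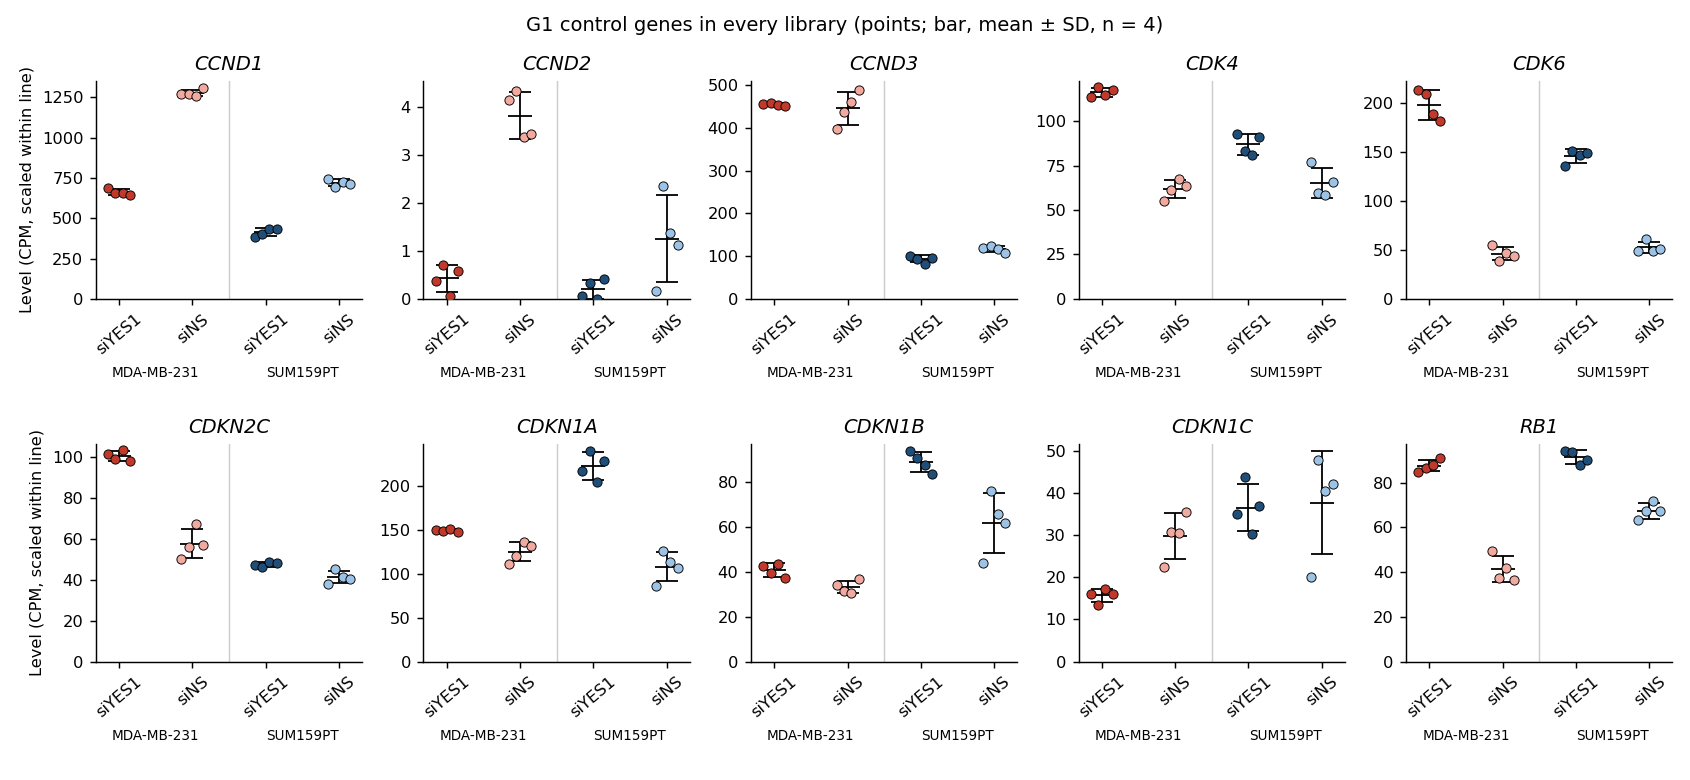
Level of each G1 control gene (CPM, scaled within each line, linear axis) in each of the 4 siYES1 and 4 siNS libraries of MDA-MB-231 (red) and SUM159PT (blue). Points are libraries and bars the mean ± SD; CCND1 is lower and CDK6 higher in every siYES1 library of both lines.

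CCND1 encodes cyclin D1 (chr11:69641087-69654474 on GRCh38, plus strand). It stood at 688, 655, 656 and 645 CPM in MDA-MB-231 siYES1, against 1272, 1269.5, 1259 and 1305 CPM in MDA-MB-231 siNS. Every siYES1 library lay far under every siNS library, and the log2 change was -0.95 ± 0.06 (edgeR adjusted p = 4.44e-09). SUM159PT levels were 385, 401, 434 and 434 CPM with siYES1, against 746, 694, 727 and 712 CPM with siNS, a log2 change of -0.80 ± 0.07 (edgeR adjusted p = 1.85e-06). The groups again did not overlap. Of the exon bases of CCND1, 10.3% are shared with LTO1 on the opposite strand, whose log2 change was 0.13 in MDA-MB-231 (edgeR adjusted p = 0.183) and 0.12 in SUM159PT (edgeR adjusted p = 0.67).

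CCND2, which encodes cyclin D2 (chr12:4273772-4305350, plus strand), was barely expressed. Its counts were 6, 12, 1 and 9 in MDA-MB-231 siYES1, against 91, 82, 59 and 67 in MDA-MB-231 siNS. All siYES1 libraries were lower, with a log2 change of -3.12 ± 0.33 (edgeR adjusted p = 6.57e-07) between group means of 0.431 and 3.83 CPM for siYES1 and siNS. In SUM159PT it had 1, 6, 0 and 9 counts with siYES1, against 3, 40, 30 and 21 counts with siNS. Here the groups overlapped, since siNS replicate 1 had only 3 counts. The count of 0 allows up to 0.159 CPM in that library, for counting error only. Without the filter on low counts the SUM159PT log2 change was -2.60 ± 0.75 (edgeR adjusted p = 0.00386). That fit gives p-values on another scale, with an edgeR adjusted p for CDK6 of 2.56e-47, against 1.59e-07 with the filter. With the filter kept, CCND2 was tested when siNS replicate 1 or 1 siYES1 library was left out. Without siNS replicate 1 its log2 change was -2.98 (edgeR adjusted p = 0.0026). It was not called without siYES1 replicate 1, 2 or 3, at -2.31, -2.91 and -2.21 (edgeR adjusted p = 0.0839, 0.0505 and 0.0657). It was called without siYES1 replicate 4, at -3.26 (edgeR adjusted p = 0.0325).

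CCND3 encodes cyclin D3 (chr6:41934933-42050357, minus strand). In MDA-MB-231 it was not called. Its levels there were 457, 459, 453 and 453 CPM with siYES1, against 398, 437, 461 and 489.7 CPM with siNS, so that the siYES1 libraries fell inside the siNS range. The log2 change was 0.03 with a 95% interval of -0.125 to 0.181 (edgeR adjusted p = 0.767). Its SUM159PT levels were 101, 94.5, 82.1 and 96.5 CPM with siYES1, against 119, 123, 118 and 107 CPM with siNS. Those groups did not overlap, and CCND3 fell by 0.32 ± 0.08 on the log2 scale (edgeR adjusted p = 0.00927).

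Within the D cyclins, CCND3 took a larger share with siYES1 in both lines. Per kilobase of exon, CCND3 made up 36.5% ± 0.598 of the summed D cyclin level in MDA-MB-231 siYES1 and 22.5% ± 1.39 in MDA-MB-231 siNS (SD, n = 4). In SUM159PT the share was 15.9% ± 1.83 with siYES1 and 11.9% ± 0.727 with siNS. No siYES1 library overlapped an siNS library of its line. CCND1 remained the larger part, at 63.5% and 77.3% in MDA-MB-231 siYES1 and siNS, and 84.1% and 88% in SUM159PT siYES1 and siNS. The summed D cyclin level per kilobase was 215.4 ± 4.11 CPM in MDA-MB-231 siYES1 and 341.8 ± 9.47 CPM in MDA-MB-231 siNS. In SUM159PT it was 101.7 ± 4.27 CPM with siYES1 and 169.4 ± 4.51 CPM with siNS. These shares were not tested.

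CDK6 (chr7:92604921-92836594, minus strand) showed the greatest rise of the 10 members in each line. It stood at 214, 209.8, 189 and 182 CPM in MDA-MB-231 siYES1, against 55.5, 38.7, 47.1 and 44.3 CPM in MDA-MB-231 siNS. The lowest siYES1 library was thus well above the highest siNS library, with a log2 change of 2.10 ± 0.10 (edgeR adjusted p = 1.25e-10). With siYES1 in SUM159PT it was at 136, 152, 147 and 149.6 CPM, against 48.7, 61, 49.1 and 51.5 CPM with siNS, a log2 change of 1.47 ± 0.09 (edgeR adjusted p = 1.59e-07). The groups did not overlap in either line.

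CDK4 (chr12:57747727-57756013, minus strand) rose less. It was 114, 119, 115 and 117 CPM in MDA-MB-231 siYES1, against 55.1, 61.5, 67.5 and 63.4 CPM in MDA-MB-231 siNS, and its log2 change was 0.91 ± 0.08 (edgeR adjusted p = 5.48e-08). In SUM159PT it was 92.9, 83.1, 81 and 91.1 CPM with siYES1, against 77, 59.6, 58.4 and 65.7 CPM with siNS, and its log2 change was 0.42 ± 0.10 (edgeR adjusted p = 0.00508). The groups did not overlap in either line, although siNS replicate 1 of SUM159PT came close. Scaled by total counts the SUM159PT value was 0.24 and was not called (edgeR adjusted p = 0.0996). CDK4 shares 1369 exon bases, 43.2% of its own, with TSPAN31 on the opposite strand, and reads there cannot be assigned because the strand setting of the counting is not given in the sources used here. TSPAN31 had 7024 counts over the 16 libraries and CDK4 had 23938. TSPAN31 fell by 0.54 ± 0.13 on the log2 scale in MDA-MB-231 (edgeR adjusted p = 0.00283), opposite to CDK4, and had a log2 change of 0.12 ± 0.11 in SUM159PT (edgeR adjusted p = 0.443).

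The balance of the kinases moved to like values in the 2 lines. CDK6 made up 30.6% ± 1.77 of the summed CDK4 and CDK6 level per kilobase in MDA-MB-231 siYES1 and 16.3% ± 2.97 in MDA-MB-231 siNS. In SUM159PT it made up 30.3% ± 2.21 with siYES1 and 17.4% ± 2.84 with siNS, or 18.5% ± 2.13 without siNS replicate 1. Libraries ranged from 28.6% to 32.7% and from 13.99% to 20.7% in MDA-MB-231 siYES1 and siNS, and from 27.4% to 32.1% and from 14.04% to 20.9% in SUM159PT siYES1 and siNS, so siRNA groups did not overlap in either line. Without division by exon length, which is long for CDK6, its share was 63% and 42.8% in MDA-MB-231 siYES1 and siNS and 62.6% and 44.7% in SUM159PT siYES1 and siNS. CDK4 exceeded CDK6 per kilobase in all 4 groups, but without that division CDK6 was the larger part with siYES1 in both lines. The order of the kinases thus depends on the exon lengths used, and 43.2% of that of CDK4 is shared with TSPAN31. These shares were not tested.

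**Figure D2:**
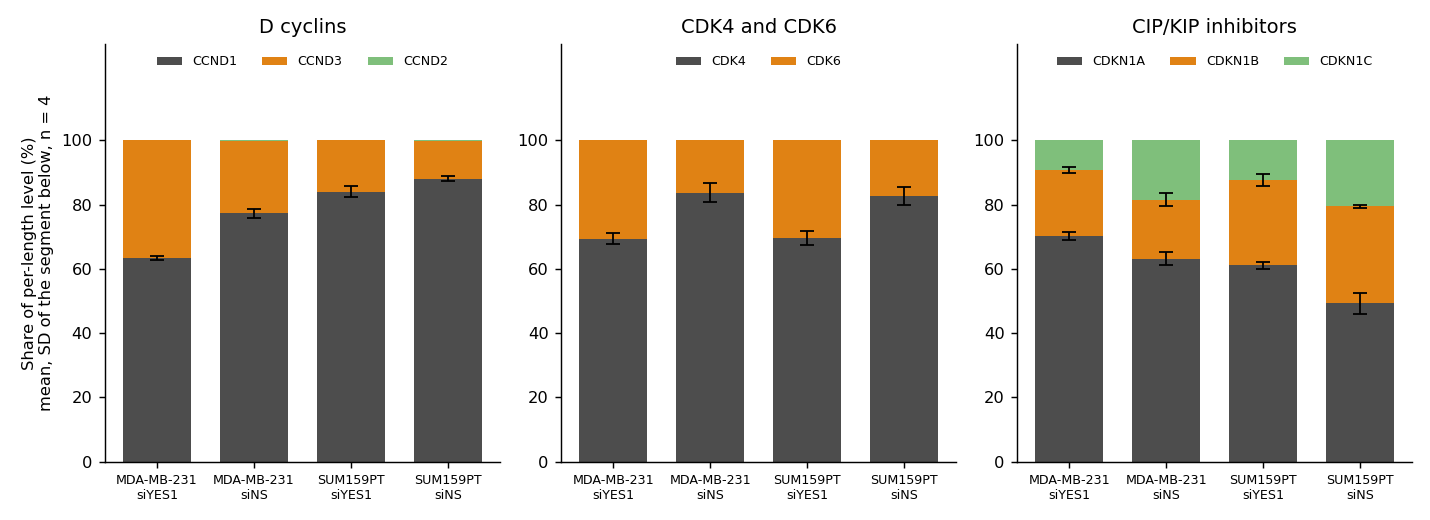
Share of each gene in the summed level per kilobase of its family (percent, mean of 4 libraries; bars, SD of the segment below), for the D cyclins, for CDK4 with CDK6, and for the CIP/KIP inhibitors. CCND3 and CDK6 take larger shares with siYES1 than with siNS in both lines, CDK6 at 30.6% against 16.3% in MDA-MB-231.

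CDKN2C encodes the INK4 inhibitor p18 (chr1:50960745-50974633, plus strand). It was 101, 99, 103 and 97.7 CPM in MDA-MB-231 siYES1, against 50, 55.9, 67 and 57 CPM in MDA-MB-231 siNS, and rose by 0.80 ± 0.09 on the log2 scale (edgeR adjusted p = 8.8e-07). Levels in SUM159PT were 47.1, 46, 48.5 and 48.2 CPM with siYES1, against 37.9, 44.9, 41.4 and 40.3 CPM with siNS. Those groups did not overlap, but the log2 change of 0.21 (95% interval 0.018 to 0.396) was not called (edgeR adjusted p = 0.0808). It passed in the joint fit of all 16 libraries (edgeR adjusted p = 0.0256) and without siNS replicate 2 (edgeR adjusted p = 0.0448), and was 0.04 when scaled by total counts.

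Of the other 3 INK4 genes, CDKN2A, which encodes p16, had 0 counts in all 16 libraries. A count of 0 allows up to 0.136 to 0.193 CPM, by library. CDKN2B, which encodes p15, had 0 counts in 14 libraries and 7 and 2 counts in SUM159PT siYES1 replicates 2 and 3. CDKN2D, which encodes p19, rose by 0.50 ± 0.13 on the log2 scale in MDA-MB-231 (edgeR adjusted p = 0.00415) and by 0.51 ± 0.19 in SUM159PT (edgeR adjusted p = 0.0459). Scaled by total counts its SUM159PT value was 0.345 and was not called.

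CDKN1A, which encodes p21 (chr6:36676460-36687339, plus strand), rose in both lines, further in SUM159PT. It was 217, 239.9, 204 and 228 CPM in SUM159PT siYES1, against 85.6, 125, 114 and 107 CPM in SUM159PT siNS, with a log2 change of 1.04 ± 0.11 (edgeR adjusted p = 1.05e-05). In MDA-MB-231 it was 149.9, 148, 151 and 147 CPM with siYES1, against 111, 120.5, 136 and 131 CPM with siNS, with a log2 change of 0.26 ± 0.07 (edgeR adjusted p = 0.00817). No groups overlapped, but the gap in MDA-MB-231 was narrow and the joint fit of all 16 libraries did not call it (0.20, edgeR adjusted p = 0.106). DINOL, which shares 146 exon bases with CDKN1A on the opposite strand, had 0 counts.

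CDKN1B, which encodes p27 (chr12:12715058-12722371, plus strand), rose modestly. It was 42.7, 39.4, 43.5 and 37.2 CPM in MDA-MB-231 siYES1, against 34, 31.5, 30.3 and 36.7 CPM in MDA-MB-231 siNS, with a log2 change of 0.30 ± 0.09 (edgeR adjusted p = 0.00985). The groups nearly touched, and the joint fit did not call it (0.24, edgeR adjusted p = 0.137). In SUM159PT it was 93.7, 90.4, 87.2 and 83.3 CPM with siYES1, against 43.9, 75.8, 65.6 and 61.6 CPM with siNS, with a log2 change of 0.52 ± 0.13 (edgeR adjusted p = 0.00752). The lowest value was that of siNS replicate 1, and without that library the log2 change was 0.38 (edgeR adjusted p = 0.000572).

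CDKN1C encodes p57 (chr11:2883213-2885773, minus strand), the imprinted member of the family. It fell in MDA-MB-231, where it was 16, 13.5, 17.3 and 16 CPM with siYES1, against 22.5, 30.8, 30.4 and 35.4 CPM with siNS. The groups did not overlap, and the log2 change was -0.92 ± 0.13 (edgeR adjusted p = 1.29e-05). In SUM159PT it was 34.9, 43.7, 30.3 and 36.9 CPM with siYES1, against 19.9, 47.9, 40.4 and 42.2 CPM with siNS, and the groups overlapped. The log2 change was -0.05, with a wide 95% interval of -0.502 to 0.412 (edgeR adjusted p = 0.889), and -0.26 without siNS replicate 1 (edgeR adjusted p = 0.064).

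All 3 CIP/KIP inhibitors were lowest, among the SUM159PT siNS libraries, in replicate 1, where CDK4 and the summed S phase genes were highest. Without that library the SUM159PT log2 change was 0.94 for CDKN1A (edgeR adjusted p = 2.23e-09) and 0.50 for CDK4 (edgeR adjusted p = 2.49e-05). As a share of the CIP/KIP sum per kilobase, CDKN1A made up 70.2% ± 1.25 in MDA-MB-231 siYES1 and 63.2% ± 1.96 in MDA-MB-231 siNS, and 61.1% ± 1.13 in SUM159PT siYES1 and 49.3% ± 3.37 in SUM159PT siNS. CDKN1C made up 9.09% ± 0.763 and 18.5% ± 2.04 in MDA-MB-231 siYES1 and siNS, and 12.3% ± 1.1 and 20.5% ± 3.37 in SUM159PT siYES1 and siNS. The summed level per kilobase was 69.6 ± 2.03 CPM and 64.7 ± 5.57 CPM in MDA-MB-231 siYES1 and siNS, and 119.1 ± 7.52 CPM and 72.5 ± 15 CPM in SUM159PT siYES1 and siNS. Without replicate 1, SUM159PT siNS had 47.6% ± 0.741 for CDKN1A, 22.1% ± 0.905 for CDKN1C and a sum of 79.4 ± 7.09 CPM per kilobase (n = 3).

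RB1 (chr13:48303726-48599436, plus strand) rose in both lines. It was 84.8, 86.7, 88 and 90.8 CPM in MDA-MB-231 siYES1, against 49.6, 37.5, 41.7 and 36.5 CPM in MDA-MB-231 siNS, with a log2 change of 1.08 ± 0.09 (edgeR adjusted p = 7.08e-08). RB1 in SUM159PT was at 94.2, 93.8, 87.9 and 90 CPM with siYES1, against 63.1, 67.3, 71.8 and 67.3 CPM with siNS, with a log2 change of 0.44 ± 0.07 (edgeR adjusted p = 0.000539). The siYES1 libraries of both lines lay above every siNS library of their line. In these bulk samples a change in the share of cells in a phase of the cycle and a change of RNA per cell cannot be told apart.

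**Figure D3:**
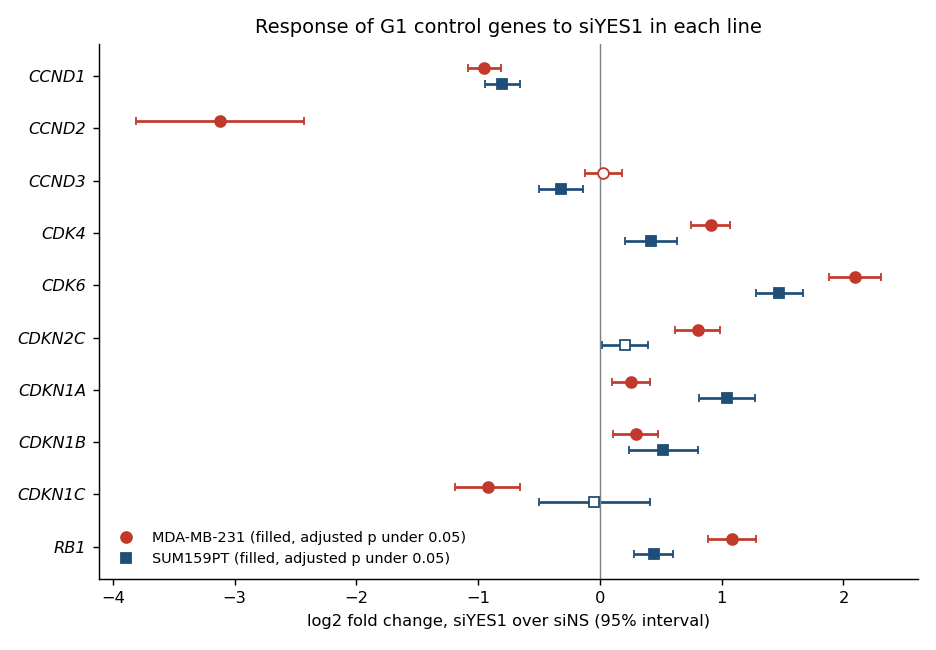
Log2 fold change of each member for siYES1 over siNS, with its 95% interval from edgeR, in MDA-MB-231 (red circles) and SUM159PT (blue squares). Filled symbols were called; CDK6 is the highest in both lines, at 2.10 and 1.47, and CCND2 is drawn for MDA-MB-231 alone because it did not pass the filter on low counts in SUM159PT.

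The difference between the responses was tested as an interaction over all 16 libraries, taken as SUM159PT minus MDA-MB-231. Of 16299 genes tested 15.4% were called with a higher and 8.85% with a lower response in SUM159PT, against 3 and 4 of the 10 members. CDKN1A rose further in SUM159PT, by 0.88 ± 0.14 on the log2 scale (edgeR adjusted p = 5.22e-05). The CDKN1C response was less negative there, by a difference of 0.98 ± 0.27 (edgeR adjusted p = 0.0113). RB1 and CDK6 rose less there, with differences of -0.54 ± 0.13 (edgeR adjusted p = 0.0031) and -0.53 ± 0.14 (edgeR adjusted p = 0.00972). The CDKN2C response was lower by a difference of -0.50 ± 0.12 (edgeR adjusted p = 0.00442). These 5 differences were called in all 23 alternatives tried. YES1 itself fell further in SUM159PT, with a difference of -0.66 ± 0.17 (edgeR adjusted p = 0.00657). The part of this unequal knockdown in the member differences was not tested.

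For CDK4 the difference was -0.40 ± 0.13 (edgeR adjusted p = 0.0247), called in 19 of 23 alternatives. For CCND1 it was 0.25 ± 0.09 (edgeR adjusted p = 0.042), and only 7 of 23 alternatives called it. The difference was not called for CCND3, at -0.25 with a 95% interval of -0.479 to -0.0219 (edgeR adjusted p = 0.104), for CDKN1B, at 0.32 with an interval of -0.0294 to 0.678 (edgeR adjusted p = 0.179), or for CCND2, at 0.62 with an interval of -1.43 to 2.67 (edgeR adjusted p = 0.706). For CCND3 19 of 23 alternatives kept that result, and for CDKN1B 22 did. Without SUM159PT siNS replicate 1 the CCND3 difference was called, at -0.309 (edgeR adjusted p = 0.0346). It was also called with DESeq2, with total counts and with RLE scaling. A difference of responses is not exactly the difference of the values from the separate fits, because the joint fit scales and filters all libraries together.

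The lines also differed in their starting levels. Between the siNS groups 38% of 16299 genes were higher and 39% lower in SUM159PT, and libraries did not overlap for 66.8% of genes. Of the members, 5 were called higher and 4 lower, with 6 of 10 not overlapping. CCND3 fell furthest short, at 122.4 CPM in SUM159PT siNS and 427.2 CPM in MDA-MB-231 siNS on a scale common to all libraries, a log2 change of -1.80 ± 0.08 (edgeR adjusted p = 3.53e-15). CCND1 was lower by a log2 change of -0.70 ± 0.06 (edgeR adjusted p = 7.54e-10), CCND2 by -1.47 ± 0.53 (edgeR adjusted p = 0.015) and CDKN2C by -0.35 ± 0.09 (edgeR adjusted p = 0.00089). CDKN1B was higher in SUM159PT, at 1.03 ± 0.12 (edgeR adjusted p = 9.07e-08), and so was RB1, at 0.83 ± 0.09 (edgeR adjusted p = 2.31e-08).

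Smaller differences between the siNS groups were less firm. CDK6 was higher in SUM159PT by 0.31 (edgeR adjusted p = 0.00963), called in 20 of 22 alternatives, CDKN1C by 0.47 (edgeR adjusted p = 0.0285), called in 15, and CDK4 by 0.21 (edgeR adjusted p = 0.0418), called in 10. CDKN1A was not called, at -0.08 with a 95% interval of -0.276 to 0.12 (edgeR adjusted p = 0.464). The line and its table cannot be told apart in these values.

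Per kilobase the order of levels was led by CCND1 in all 4 groups. In MDA-MB-231 siYES1 it was followed by CCND3 at 78.5 ± 0.51, CDKN1A at 48.8 ± 0.57, CDK4 at 36.7 ± 0.81 and CDKN2C at 30.2 ± 0.7 CPM per kilobase. Then came CDK6 at 16.2 ± 1.3, CDKN1B at 14.5 ± 1.1 and RB1 at 13.6 ± 0.39, where CDKN1B overlapped both of its neighbours but CDK6 and RB1 did not overlap, then CDKN1C and CCND2. In MDA-MB-231 siNS the order differed at the lower end, with CDKN1C at 12.02 ± 2.2, CDKN1B at 11.8 ± 1.0, RB1 at 6.41 ± 0.92 and CDK6 at 3.79 ± 0.57 CPM per kilobase. CDK6 was thus above RB1 with siYES1 and under it with siNS. In SUM159PT the second place was held by CDKN1A, at 72.8 ± 5.1 with siYES1 and 35.4 ± 5.5 CPM per kilobase with siNS. CDKN1B, CDK4 and CCND3 followed in SUM159PT siNS at 21.96 ± 4.7, 20.6 ± 2.7 and 20.1 ± 1.2, within each other's spread.

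The partners and targets of these genes were described by 6 lists of 60 genes, whose counts are read against the shares of all genes given above. Among 10 other G1/S cyclins, kinases and activators, 5 rose and 5 were not called in MDA-MB-231, with a median log2 change of 0.483. In SUM159PT 6 rose and 2 fell, with a median of 0.333. CKS1B, a small subunit that docks CDKs to substrates, rose by 1.76 ± 0.10 on the log2 scale in MDA-MB-231 and by 1.25 ± 0.09 in SUM159PT. CDK2, the kinase that cyclin E activates, rose by 1.60 ± 0.09 in MDA-MB-231 and 1.15 ± 0.11 in SUM159PT. CDC25A, the phosphatase that activates CDK2, rose by 0.91 in MDA-MB-231 and was at -0.25 and not called in SUM159PT. CKS2, the relative of CKS1B, rose by 0.88 in MDA-MB-231 and by 1.18 in SUM159PT. Both cyclin E genes fell in SUM159PT, CCNE1 by 0.77 ± 0.18 and CCNE2 by 1.01 ± 0.37, whereas in MDA-MB-231 CCNE2 rose by 0.75 ± 0.13 and CCNE1 was at -0.02 and not called. Without SUM159PT siNS replicate 1 CCNE2 was at -0.70 and lost its call in that line (edgeR adjusted p = 0.139), so 6 of the 10 rose and 1 fell. Over all genes that fit called 3083 higher and 3154 lower in SUM159PT, against 2566 and 2755 with all libraries, and list counts without that library are read against these. Scaled by total counts, 3 of the 10 rose in SUM159PT and 2 fell, while over all genes 1394 were higher and 4173 lower.

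Of 9 RB relatives and E2F and DP factors, 6 rose and 3 were not called in MDA-MB-231, with a median of 0.299. RBL1, the p107 pocket protein, rose by 1.12 ± 0.09 there, and the activating factors E2F1 and E2F2 by 0.80 ± 0.10 and 0.65 ± 0.12. In SUM159PT 1 rose and 2 fell, with a median of -0.00976. E2F2 fell by 1.27 ± 0.31 and TFDP2, a partner of E2F factors, fell by 0.43 ± 0.11, while RBL2, the p130 pocket protein, rose by 0.42 ± 0.09. Without SUM159PT siNS replicate 1, 3 rose and 2 fell in that line, with a median of 0.0202, and E2F2 was at -0.81 (edgeR adjusted p = 0.00229).

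Of 14 E2F-dependent S phase genes, 13 rose and 1 was not called in MDA-MB-231, with a median of 0.673. CCNA2, which encodes cyclin A2, rose by 1.16 ± 0.07, RRM2, a ribonucleotide reductase subunit, by 0.96 ± 0.09 and MCM7, a subunit of the replicative helicase, by 0.90 ± 0.08. In SUM159PT 3 rose and 4 fell, with a median of -0.295. CCNA2 rose by 1.34 ± 0.10, whereas MCM3, another helicase subunit, fell by 1.39 ± 0.33 and PCNA, the polymerase clamp, fell by 0.97 ± 0.27. Without siNS replicate 1, 4 rose and 4 fell, the median was 0.0343, MCM3 was at -0.78 (edgeR adjusted p = 1.02e-05) and PCNA at -0.52 (edgeR adjusted p = 5e-04). For 9 of the 14 the interaction was called, each with a lower response in SUM159PT, and without that library 9 were lower and 1 higher.

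Of 13 ubiquitin ligase parts that act on cyclins or CIP/KIP inhibitors, 3 rose and 3 fell in MDA-MB-231, with a median of 0.0342, and 2 rose and 11 were not called in SUM159PT, with a median of 0.0996. DTL, the receptor that marks p21 and CDT1 for destruction, rose by 1.66 ± 0.09 in MDA-MB-231 and 0.88 ± 0.22 in SUM159PT. SKP2, the receptor for p27, rose by 1.01 ± 0.09 in MDA-MB-231, FBXO31, a receptor for cyclin D1, fell there by 0.30 ± 0.08, and CUL4A, a cullin scaffold, rose by 0.33 ± 0.09 in SUM159PT. Without SUM159PT siNS replicate 1, 4 of the 13 rose in that line, where the calls over all genes also grew, as given above. Of 11 transcriptional regulators of these genes, 3 rose and 2 fell in MDA-MB-231, with a median of 0.055, and 4 rose and 2 fell in SUM159PT, with a median of 0.0657. STAT3, an activator of CCND1, rose by 0.61 ± 0.07 in MDA-MB-231 and by 0.48 ± 0.11 in SUM159PT, and SP1, which binds GC boxes, rose by 0.51 ± 0.10 and by 0.44 ± 0.10. FOXO4, a forkhead factor that can induce CDKN1B, fell by 1.84 ± 0.15 in MDA-MB-231. Each list gene said to have risen or fallen had an edgeR adjusted p under 0.05 in the line given, with all libraries in the fit.

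**Figure D4:**
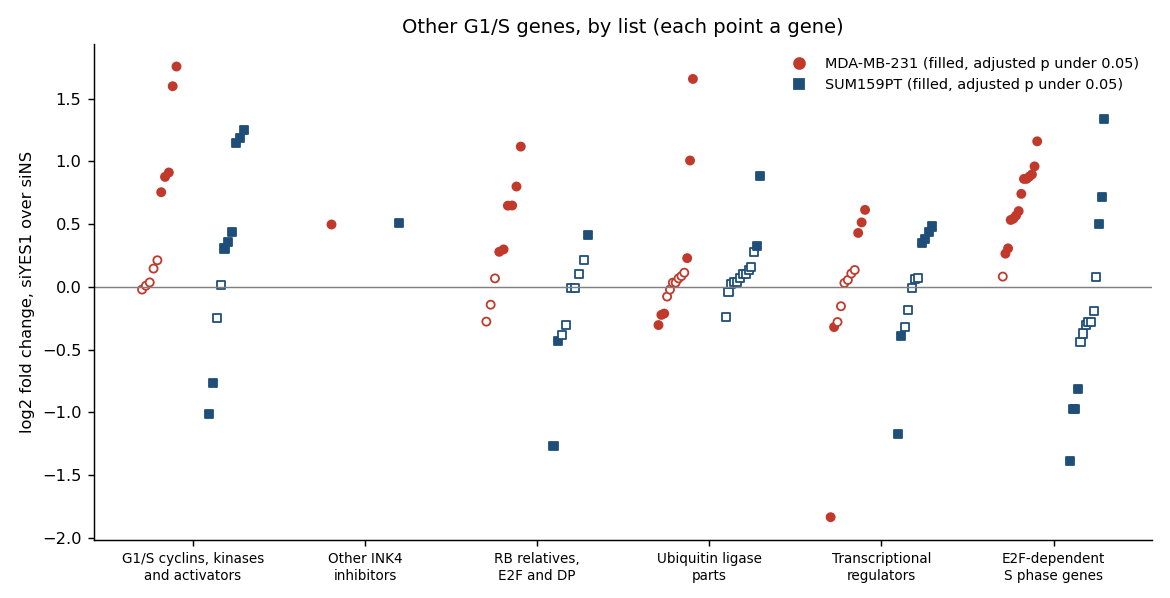
Log2 fold change for siYES1 over siNS of each tested gene of the 6 lists, in MDA-MB-231 (red circles) and SUM159PT (blue squares), with filled symbols for genes called at an adjusted p under 0.05. In the E2F-dependent S phase list 13 of 14 genes rose in MDA-MB-231, against 3 of 14 in SUM159PT.

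The genes most like CDK6 were sought over the 16 libraries after the mean of each line was removed, among 9610 genes with a mean of 5 CPM or more in both lines. QKI, an RNA-binding protein, had a Pearson correlation of 0.993, CERS2, a ceramide synthase, 0.993, and MBNL1, a splicing regulator, 0.990. Their log2 changes were 1.37, 0.75 and 1.74 in MDA-MB-231. For CDKN2C the closest were SETD1A, a histone methyltransferase, at 0.967, CCT4, a chaperonin subunit, at 0.959, and LETMD1, a mitochondrial protein, at 0.957. The libraries share their siRNA group, so these correlations mostly follow the difference between groups and carry no test.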

How the data were processed

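Messenger RNA of 16 libraries was selected on poly-T beads, per the labels' protocols, which name both a directional and a non-directional kit step. Alignment to hg38 with HISAT2 2.0.5 and counting with featureCounts 1.5.0-p3 are named in the submitters' processing notes. The authors deposited raw counts per gene, 1 table per line. Columns of the SUM159PT table begin with S149, a prefix that is not an abbreviation of SUM159PT; the labels' name was used and the line's identity was not tested. Symbols, exon lengths and coordinates came from GENCODE 29.

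Each line was fitted on its 8 libraries with edgeR 4.0.16 (R 4.3.3), TMM scaling, filterByExpr and the quasi-likelihood F test, with Benjamini-Hochberg adjustment over all genes. Interaction and siNS contrasts used all 16 libraries. CPM was computed from the counts. DESeq2 1.42.0, limma-voom (limma 3.58.1), other scalings and filters, a replicate block, a joint fit and leaving out each library were alternatives. Members and lists were chosen with earlier results of these data known. Named were all members, YES1, up to 3 called genes with the largest change per list and line, all members of lists under 5 genes, and 3 genes most like CDK6 and CDKN2C. Marker genes, overlapping genes, the cyclin E genes, the split of the MDA-MB-231 siNS libraries and 1 library that stood apart were named after their values were seen.

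On simulated data with 50 changed genes per size, 1.5-fold changes were recovered in 64% of cases in MDA-MB-231, 34% in SUM159PT and 22% in the interaction, and 2-fold changes in 84%, 62% and 62%. Far fewer genes changed there than were called in the data, which shifts the adjusted p, so these rates need not hold for the fits reported.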

Additional observations from a re-analysis of the deposited data

Results flagged for a closer look

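For 7 members the test of the interaction found that the siYES1 response differed between the lines, as SUM159PT minus MDA-MB-231 on the log2 scale. The differences were 0.88 for CDKN1A, 0.98 for CDKN1C, -0.54 for RB1, -0.53 for CDK6, -0.50 for CDKN2C, -0.40 for CDK4 and 0.25 for CCND1. In all but CDKN1A the response was smaller in size in SUM159PT. The summed E2F-dependent S phase genes ran from 2513 to 2596 CPM in MDA-MB-231 siYES1 and from 1556 to 1755 CPM in MDA-MB-231 siNS, and from 656.2 to 684.7 CPM in SUM159PT siYES1 and from 506.7 to 1039 CPM in SUM159PT siNS; their part in these differences was not tested. Of 40 groups of 4 libraries, 10 members in 4 groups, none had a library that stood far enough from the others to pass Dixon's critical value of 0.829.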

How the results depend on the processing

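Over 760 values of single members under an alternative, 696 kept their direction and their side of the threshold, 47 lost and 7 gained the call, and 10 changed sign, none of them called in the fit reported; the cause was not tested. Of these, CCND3 in MDA-MB-231 was -0.0171 with total counts, -0.0266 in the joint fit and -0.0178 to 0.077 with 1 library left out. CDKN1C in SUM159PT was 0.0105 with limma-voom, 0.00588 with the replicate block and -0.262 to 0.0892 with 1 library left out, above 0 without siNS replicate 2, siNS replicate 4 or siYES1 replicate 3. With 1 library left out the CCND2 interaction ran from -0.0426 to 1.1 and CDKN1A between siNS groups from -0.162 to 0.0416. Members called ranged from 7 to 9 in MDA-MB-231, 6 to 9 in SUM159PT, 5 to 8 in the interaction and 7 to 9 between siNS groups. Total counts moved the SUM159PT median of all genes to -0.2, with 1394 genes higher and 4173 lower against 2566 and 2755, and CDK4 to 0.242, RB1 to 0.271, CCND3 to -0.491 and CDKN2C to 0.0387. They moved the interaction median to -0.189, with 1375 higher and 2795 lower against 2511 and 1442. In the joint fit 2230 genes of MDA-MB-231 were higher and 3668 lower, against 3570 and 3933. With the replicate number as a block, 7109 genes were called in MDA-MB-231, 4961 in SUM159PT and 3545 in the interaction, with 9, 7 and 6 members; only the CCND1 interaction lost its call among members (0.245, edgeR adjusted p = 0.101). Deviations of same-numbered libraries correlated at -0.368 to 0.0939 in MDA-MB-231 and at -0.145 to 0.254 in SUM159PT, so the numbers were not taken as pairs. List counts without SUM159PT siNS replicate 1 or under other scalings were added after seeing the data. CCND2 is limited by depth, with at most 91 counts in a library. In SUM159PT its values were set against the fit without the filter on low counts, since the fit reported did not test it.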
